A study of Mus musculus with 4 samples.

Results

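The miR-17-92 and miR-106b-25 clusters are paralogous groups of microRNAs (miRNAs), short RNAs that repress messenger RNAs, and each cluster is cut from one primary transcript. Of the 1907 mature miRNA rows in each count file, 9 were taken by name, the guide arms of these hairpins. A guide arm is the strand of a hairpin that is loaded into Argonaute. miR-17-92 gave 6 of them and miR-106b-25 gave 3. In the files they are named mmu-miR-17-5p, mmu-miR-18a-5p, mmu-miR-19a-3p, mmu-miR-20a-5p, mmu-miR-19b-3p and mmu-miR-92a-3p for the first cluster, and mmu-miR-106b-5p, mmu-miR-93-5p and mmu-miR-25-3p for the second; the species prefix is left out below. The rule names them by cluster and uses no value, but it was set with earlier results of these data known.

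The libraries came from the livers of C57BL/6 mice aged 15 weeks, 2 labelled control and 2 labelled TAA. TAA is thioacetamide, a compound that the liver converts into toxic metabolites and that is used to produce fibrosis in rodents. It was injected intraperitoneally at 200 mg/kg, 3 times a week for 10 weeks. What the controls were injected with is not stated in the labels, and no genetic change is named for either group. The design text calls the libraries biological replicates without naming animals, so p-values measure the spread between these samples, which may be technical. Total RNA of whole liver was used, and in such bulk samples fewer cells of a type and less RNA per cell cannot be told apart.

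miR-17-92 is known as an oncogenic cluster that MYC and E2F factors activate and that promotes growth of dividing cells. Its miRNAs fall into families by seed, the bases 2 to 8 that pair with targets. The miR-17 and miR-106b family lowers the cell-cycle inhibitor p21 and the TGF-beta type II receptor, and the miR-92 and miR-25 family lowers targets that include BIM. TGF-beta signalling is a central driver of collagen production in the fibrotic liver.

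In the mouse genome (GRCm38, the assembly also called mm10) the hairpins of miR-17-92 span chr14:115043671-115044506 on the plus strand, 836 bp. They lie within the exon of Mir17hg, a lincRNA at chr14:115042879-115046727 with 1 annotated transcript. Those of miR-106b-25 span chr5:138165321-138165818 on the minus strand, 498 bp, inside the protein-coding gene Mcm7 at chr5:138164583-138172422. Mcm7 encodes a subunit of the replicative DNA helicase. Of its 10 annotated transcripts, 1 has an exon that overlaps the hairpins of miR-93 and miR-25. The hairpin of miR-106b overlaps no exon of any of them and is intronic.

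The mature sequences below, from RefSeq on GRCm38.p6, are grouped by seed, since the seed decides which counts can be added up as one family. Each is written 5′ to 3′ with the seed in capitals. The first 4 share AAAGUGC, miR-18a-5p differs from them within the seed, the miR-19 pair shares GUGCAAA, and the last pair shares AUUGCAC across the clusters.
miR-17-5p: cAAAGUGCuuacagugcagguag
miR-20a-5p: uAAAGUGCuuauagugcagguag
miR-106b-5p: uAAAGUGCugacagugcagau
miR-93-5p: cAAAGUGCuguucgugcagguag
miR-18a-5p: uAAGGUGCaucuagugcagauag
miR-19a-3p: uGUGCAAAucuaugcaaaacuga
miR-19b-3p: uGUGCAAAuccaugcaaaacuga
miR-92a-3p: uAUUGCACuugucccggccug
miR-25-3p: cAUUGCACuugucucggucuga

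Some of these sequences are nearly identical. Counted from 1 at the 5′ end, miR-19a-3p and miR-19b-3p differ by a single substitution, U11C, and miR-17-5p and miR-20a-5p by C1U and C12U. miR-92a-3p and miR-25-3p differ by U1C, C14U and C18U over the 21 bases compared. The sources used here do not give how reads that matched several loci were counted, so counts of close relatives are uncertain where reads could be split. miR-19b-3p and miR-92a-3p can also come from a second hairpin each, Mir19b-2 and Mir92-2 on the X chromosome. Their counts are therefore not those of miR-17-92 alone.

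Every library was deep enough to measure all 9 guide arms. Each held between 42609845 and 48878003 miRNA counts, so that a level of 1 CPM (counts relative to the TMM-scaled library size) stood for 42.3 to 51.3 counts. miR-122-5p, the defining miRNA of hepatocytes, stood at between 17376 and 21608 CPM in all 4 libraries. The summed level of 6 hepatocyte miRNAs was 350633 and 381076 CPM in controls and 318213 and 329150 CPM in TAA, with none of the 6 past the test. Of the blood cell markers, 3 of 6 leukocyte miRNAs and 4 of 4 erythroid miRNAs were called higher in TAA, against 14.0% of all tested miRNAs. The leukocyte list summed to 940.2 and 1455 CPM in controls and 1974 and 1726 CPM in TAA, and the erythroid list to 325.0 and 195.9 against 530.3 and 1926 CPM. The endothelial list had 0 of 2 miRNAs past the test, the mesenchymal list 1 of 4 higher and the epithelial list 2 of 5 lower. Over all tested miRNAs 14.0% were higher and 2.64% lower. The mesenchymal list summed to 27118 and 27554 CPM in controls and 30658 and 22635 CPM in TAA, with overlap. For muscle, a tissue that should be absent, 1 of 3 miRNAs had enough counts to be tested and did not pass, and miR-208a-3p was at 0.

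The 9 guide arms differed in level by about 3 orders of magnitude although each cluster is transcribed as 1 unit. miR-92a-3p, the last guide arm of miR-17-92, stood at 16703 and 18482 CPM in controls and at 17574 and 18892 CPM in TAA. It made up 96.5% to 97.8% of the cluster's guide counts in each library, with a 95% Wilson interval of 96.4% to 96.5% for the lowest, in control 1. These intervals, like the others here, cover counting error only. miR-18a-5p, the least abundant guide arm, stood at 14.2 and 11.2 CPM in controls and at 17.2 and 14.8 CPM in TAA. The ratio of miR-92a-3p to miR-18a-5p was 1179 and 1649 in controls and 1024 and 1279 in TAA, overlapping between the groups.

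**Figure D1:**
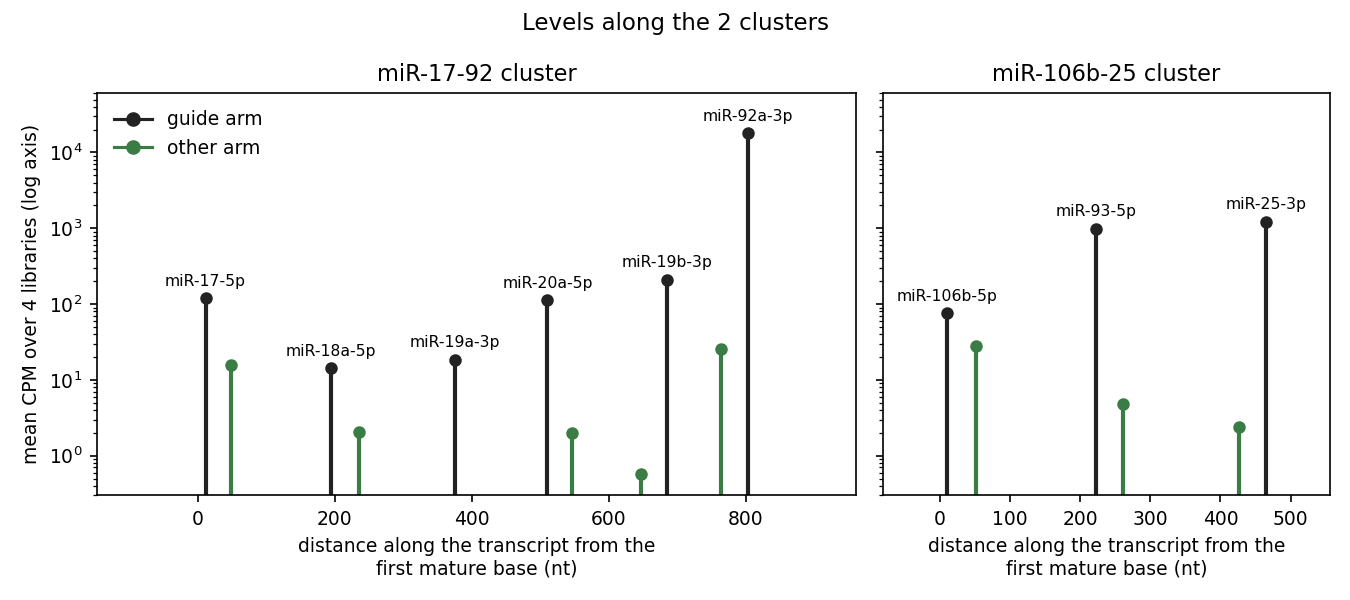
Mean level of each mature arm over the 4 libraries (CPM, log axis) at the middle of its mature sequence, against the distance in nucleotides from the first mature base of the cluster, for miR-17-92 (left) and miR-106b-25 (right). Black marks are guide arms and green marks the other arms of the same hairpins; miR-19a-5p has no entry in the sequence table and is not drawn. miR-92a-3p stands far above its neighbours, and miR-106b-5p stands below miR-93-5p and miR-25-3p.

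Between these ends the order was nearly the same in every library. From the highest level down it ran miR-92a-3p, miR-25-3p, miR-93-5p, miR-19b-3p, miR-17-5p, miR-20a-5p, miR-106b-5p, miR-19a-3p and miR-18a-5p, in each library except TAA 1, where miR-18a-5p was above miR-19a-3p. By group means this pair also changed places, with miR-19a-3p above miR-18a-5p in controls and just below it in TAA. Neighbours in this order were separated over all libraries apart from a pair of cases. miR-17-5p and miR-20a-5p were close to each other, with a ratio of 1.03 to 1.10, and miR-19a-3p over miR-18a-5p ranged from 0.808 to 2.09. The step from miR-92a-3p to miR-25-3p was 13.7-fold to 16.7-fold. Levels per miRNA also carry the efficiency with which adapters join to each sequence, so the order across miRNAs is that of counts in these libraries.

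In miR-106b-25 the counts were shared more evenly. miR-25-3p took 50.02% to 56.4% of the cluster's guide counts and miR-93-5p 40.5% to 46.3%. miR-106b-5p took the remaining 3.05% to 3.65%. By seed, miR-93-5p supplied 75.5% to 77.3% of the counts of the 4 guide arms with AAAGUGC, ahead of miR-17-5p with 8.88% to 9.68%. miR-20a-5p held 8.04% to 9.14% of that seed and miR-106b-5p 5.51% to 6.15%. In the miR-19 pair, miR-19b-3p held 91.3% to 92.4%, and for AUUGCAC miR-92a-3p held 93.2% to 94.4%.

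Among the 1623 rows with a matched sequence, few counts with these seeds came from other miRNAs. Rows without a matched sequence could not be searched. Of all counts in rows whose bases 2 to 8 were AAAGUGC, the clusters' guide arms held 99.8% to 99.9%, and for AUUGCAC they held 99.7% to 99.8%. For GUGCAAA no other row was matched. All 9 guide arms together were 1.94% and 1.95% of miRNA counts in controls and 2.11% and 2.28% in TAA. These are raw shares without TMM scaling and are mostly miR-92a-3p. The TMM-scaled miR-17-92 total, given below, overlapped between the groups.

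**Figure D2:**
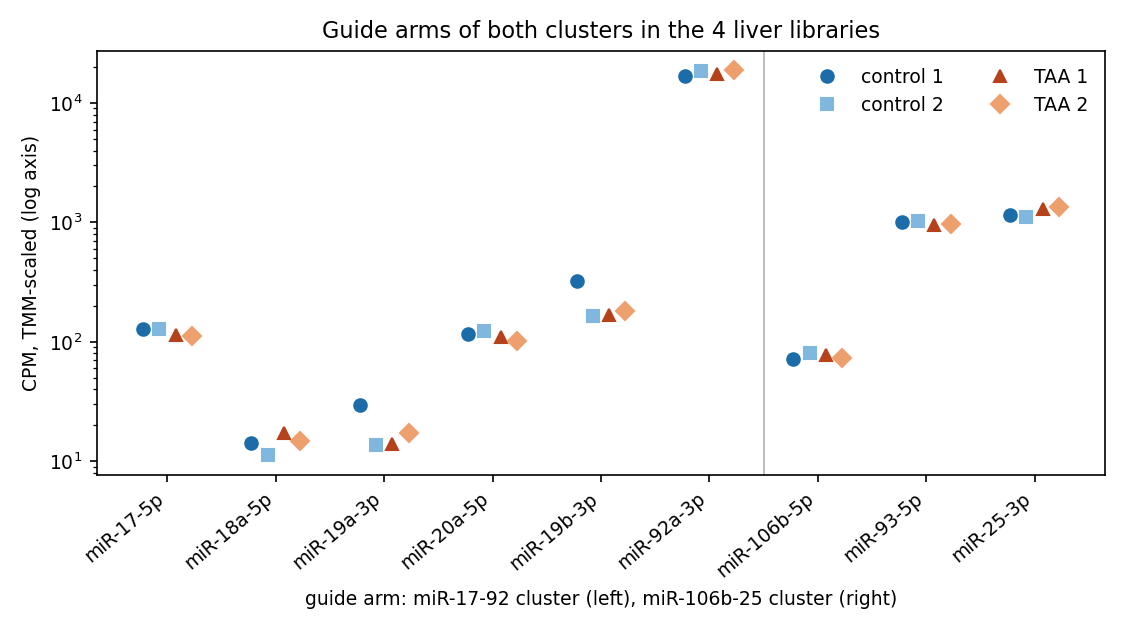
Level of each guide arm (CPM scaled with TMM factors, log axis) in control 1, control 2, TAA 1 and TAA 2, with miR-17-92 left of the grey line and miR-106b-25 right of it. Each symbol is 1 library; the 4 symbols of a guide arm lie close together on this scale except for miR-19a-3p and miR-19b-3p, where control 1 stands above the other 3 libraries.

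The comparison the design names is TAA against control. None of the 9 guide arms rose or fell at an adjusted p under 0.05 in edgeR's quasi-likelihood test over the 644 miRNAs tested, and DESeq2 and limma-voom also called 0 of the 9 (15.5% and 16.5% of all tested miRNAs). None had an unadjusted p under 0.05 either, beside 25.6% of all tested miRNAs. Over all tested miRNAs 107 passed, 16.6%, with 90 higher (14.0%) and 17 lower (2.64%) in TAA. The median log2 fold change of the 9 was -0.07, beside -0.0042 for all tested miRNAs. The groups did not overlap in CPM for 5 of the 9, against 55.3% of all tested miRNAs. TAA lay above both controls for 2 of them (29.7% of all tested) and below both for 3 (25.6% of all tested). Simulated 2-fold changes in data of this size were recovered for 67.3% of 98 miRNAs and 4-fold changes for 98.9% of 94. Of the 168 calls made there, 9 were false. Changes as small as those fitted for the guide arms were not simulated. The intervals below give the differences that the data still allow.

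The 3 guide arms counted above as below both controls in TMM-scaled CPM were miR-17-5p, miR-20a-5p and miR-93-5p. They are of the AAAGUGC family, which has 4. With 25.6% of all tested miRNAs also below both controls, the count of 3 is not read as a trait of the family. The differences of these 3 were within the test's error. miR-17-5p stood at 127.2 and 127.6 CPM in controls and at 113.3 and 111.3 CPM in TAA. The TAA libraries were both lower and the groups did not overlap, yet the log2 fold change of -0.18 (SE 0.13, 95% interval -0.49 to 0.13) had an adjusted p of 0.455 by edgeR. miR-20a-5p stood at 116.3 and 124.0 CPM in controls and at 110.2 and 100.8 CPM in TAA. It was again lower in both TAA libraries, with a log2 fold change of -0.19 (SE 0.14, interval -0.51 to 0.14; edgeR adjusted p = 0.467).

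miR-93-5p, the most abundant of that family, stood at 999 and 1024 CPM in controls and at 952 and 969 CPM in TAA. In TMM-scaled CPM the groups did not overlap but were close, with a log2 fold change of -0.07 (SE 0.11, interval -0.32 to 0.17; edgeR adjusted p = 0.753). miR-106b-5p, made from the same hairpin cluster, stood at 72.5 and 80.8 CPM in controls and at 77.0 and 72.8 CPM in TAA. Its groups overlapped, and the log2 fold change was -0.03 (SE 0.15, interval -0.37 to 0.31; edgeR adjusted p = 0.923). The signs of miR-93-5p and miR-106b-5p turned positive with library size alone, at 0.05 and 0.09.

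miR-18a-5p, whose seed is AAGGUGC, had the largest positive value of the 9. From 14.2 and 11.2 CPM in controls it went to 17.2 and 14.8 CPM in TAA. The lower TAA library and the higher control nearly met. The log2 fold change was 0.33 (SE 0.20, interval -0.13 to 0.80; edgeR adjusted p = 0.369). It had 479 to 780 counts per library, and counting error alone was 4.57% of the lowest count.

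In the AUUGCAC family, miR-25-3p came nearest to the threshold of all 9. It stood at 1152 and 1106 CPM in controls and at 1285 and 1348 CPM in TAA. Both TAA libraries were above both controls, with a log2 fold change of 0.22 (SE 0.11, interval -0.03 to 0.47). Its p was 0.0723 and its adjusted p 0.249 by edgeR. miR-92a-3p, with the same seed and the deepest counts, had overlapping groups and a log2 fold change of 0.05 (SE 0.10, interval -0.18 to 0.29; edgeR adjusted p = 0.839). With upper-quartile scaling, which moved the median of all tested miRNAs to -0.17, its value was -0.12.

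Of 11 ratios between guide arms that were computed, 4 did not overlap between the groups. In CPM, 55.3% of all tested miRNAs did not overlap, and no such share was computed for ratios of other miRNAs. The pairs share guide arms, so they are not separate observations. miR-25-3p was 1.15 and 1.08 times miR-93-5p in controls and 1.35 and 1.39 times in TAA. Against miR-106b-5p it was 15.9 and 13.7 times in controls and 16.7 and 18.5 times in TAA. Neither of these overlapped between the groups, while miR-93-5p over miR-106b-5p did, at 13.8 and 12.7 in controls and 12.4 and 13.3 in TAA. Also without overlap was miR-92a-3p over miR-25-3p, at 14.5 and 16.7 in controls and 13.7 and 14.0 in TAA. For any of them the smallest exact permutation p that 2 against 2 can give is 0.333. In miR-17-92 the ratio of miR-92a-3p to miR-17-5p was 131.3 and 144.9 in controls and 155.2 and 169.7 in TAA, again without overlap, and that of miR-17-5p to miR-20a-5p overlapped, at 1.03 to 1.10. Such ratios are taken within a library and do not depend on the scaling between libraries.

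**Figure D3:**
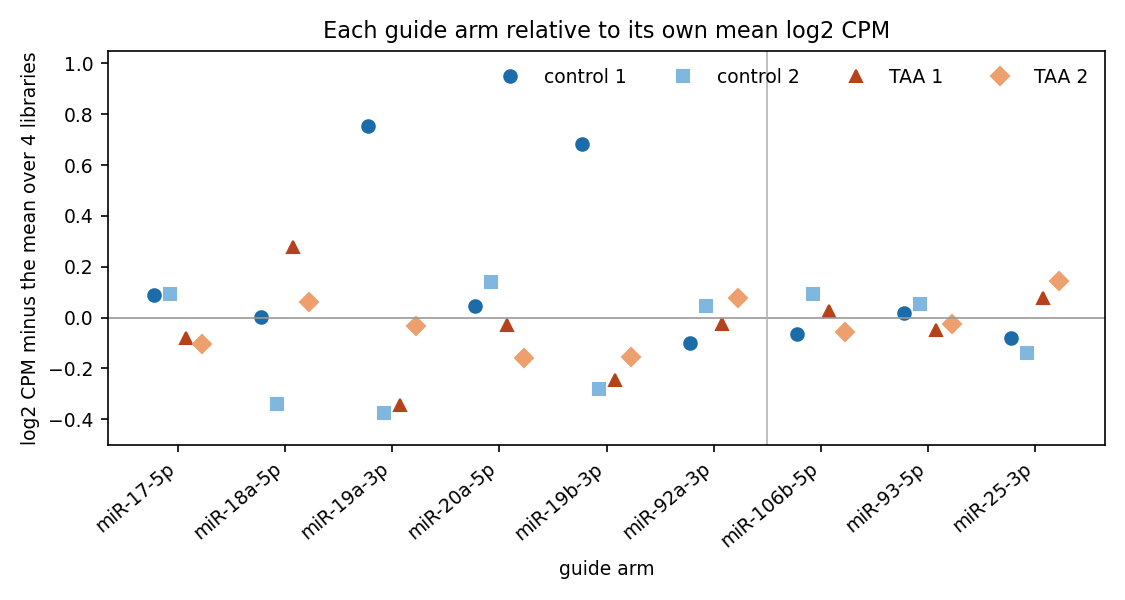
log2 CPM of each guide arm minus its own mean over the 4 libraries, with 1 symbol per library, miR-17-92 left of the grey line and miR-106b-25 right of it. The miR-19 guide arms stand high in control 1 alone, while miR-17-5p and miR-20a-5p lie lower in both TAA libraries and miR-25-3p higher.

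The miR-19 pair had the lowest fold changes and the widest spread. miR-19b-3p stood at 320.9 CPM in control 1, 164.6 in control 2, 168.5 in TAA 1 and 179.7 in TAA 2. miR-19a-3p, which has its own hairpin but differs from miR-19b-3p by 1 base, stood at 29.6, 13.6, 13.9 and 17.2 CPM in the same order. miR-19b-3p was 10.5 to 12.2 times miR-19a-3p in every library, and whether reads were shared between them was not tested. In both, control 1 was high and control 2 was the lowest library, so the groups overlapped. The log2 fold changes were -0.48 for miR-19b-3p (SE 0.27, interval -1.11 to 0.15; edgeR adjusted p = 0.333) and -0.48 for miR-19a-3p (SE 0.34, interval -1.25 to 0.30; edgeR adjusted p = 0.434).

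Control 1 decided these values. Without control 2, so that control 1 stood alone against TAA, miR-19b-3p had a log2 fold change of -0.89 (edgeR adjusted p = 7.57e-05) and miR-19a-3p of -0.94 (edgeR adjusted p = 0.000797), and both were called lower. In that fit 4.78% of 690 tested miRNAs were called lower. Without control 1 the values were 0.06 and 0.18 and none of the 9 guide arms was called, against 18.0% of 679 tested miRNAs. With no filter on low counts, over 1256 miRNAs of which 2.55% were lower, miR-19b-3p kept its -0.48 with an edgeR adjusted p of 0.0339. A lone library in these fits is assumed to vary like the other group.

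Among the 9 guide arms the controls differed most for the miR-19 pair. Control 1 over control 2 was 2.18 for miR-19a-3p (95% counting interval 1.98 to 2.42) and 1.95 for miR-19b-3p (1.89 to 2.01). miR-18a-5p followed with 1.26, and the other 6 guide arms lay between 0.897 and 1.04. The other arms of the miR-19 hairpins did not show it at their depth: miR-19a-5p had 28 and 31 counts in the controls, a ratio of 0.912 (0.527 to 1.57), and miR-19b-1-5p had 25 and 29, a ratio of 0.871 (0.489 to 1.54). The guide arms' ratios lie above both of these intervals. Of the 273 miRNAs with a mean of at least 10 CPM, 5 (1.83%) had a ratio as high as miR-19b-3p or higher, the miR-19 guide arms included.

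Other miRNAs also stood higher in control 1 than in control 2. Of those 273, the erythroid miRNA miR-451a (2.27) and miR-582-3p (1.99) also had ratios above that of miR-19b-3p. Each was higher still in both TAA libraries. The highest ratio among those 273 was that of miR-375-3p, which is abundant in pancreatic islets, at 12.2. Its counts were 4373 in control 1, 362 in control 2, 463 in TAA 1 and 481 in TAA 2. The acinar pancreas miRNAs miR-216a-5p (113, 0, 10 and 0 counts) and miR-217-5p (125, 0, 6 and 5 counts) were also mostly in control 1. miR-216b-5p had 72, 2, 2 and 1. These miR-216 and miR-217 rows had means below 10 CPM and so lie outside those 273. The summed level of the 4 pancreas miRNAs was 110.6 CPM in control 1 and 8.51 to 10.6 CPM in the other libraries. The list was drawn up after such values had been seen, and its part in the miR-19 result was not tested.

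Summed by cluster or by seed, the full totals had log2 ratios between -0.09 and 0.09, apart from GUGCAAA. miR-17-92 summed to 17312 and 18923 CPM in controls and to 17997 and 19315 CPM in TAA, a log2 ratio of 0.04 with overlapping groups (exact two-sided permutation p = 0.667). Leaving out miR-19b-3p and miR-92a-3p, which have the X-linked copies, it summed to 287.3 and 276.4 CPM in controls and 254.5 and 244.1 CPM in TAA, a log2 ratio of -0.18. The full total is nearly all miR-92a-3p, while the sum of the remaining 4 guide arms was lower in TAA without overlap. Of all tested miRNAs, 25.6% were likewise below both controls. That sum is mostly miR-17-5p and miR-20a-5p, which were lower in both TAA libraries. The other arms in it went differently: miR-18a-5p was higher in both TAA libraries, and the groups overlapped for miR-19a-3p. miR-106b-25 summed to 2223 and 2211 CPM in controls and to 2314 and 2390 CPM in TAA, a log2 ratio of 0.09 (exact permutation p = 0.333, the smallest possible).

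By seed, AAAGUGC summed to 1315 and 1357 CPM in controls and 1253 and 1254 CPM in TAA, a log2 ratio of -0.09 (exact permutation p = 0.333). With TMM scaling the TAA sums were below both controls, as were 25.6% of all tested miRNAs. With library size alone the log2 ratio was 0.030. AUUGCAC summed to 17855 and 19588 CPM against 18859 and 20240 CPM, a log2 ratio of 0.06 (exact permutation p = 0.667), with overlap. GUGCAAA summed to 350.5 and 178.2 CPM against 182.3 and 196.9 CPM. The log2 ratio of -0.48 (exact permutation p = 1) turned to 0.090 without control 1.

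**Figure D4:**
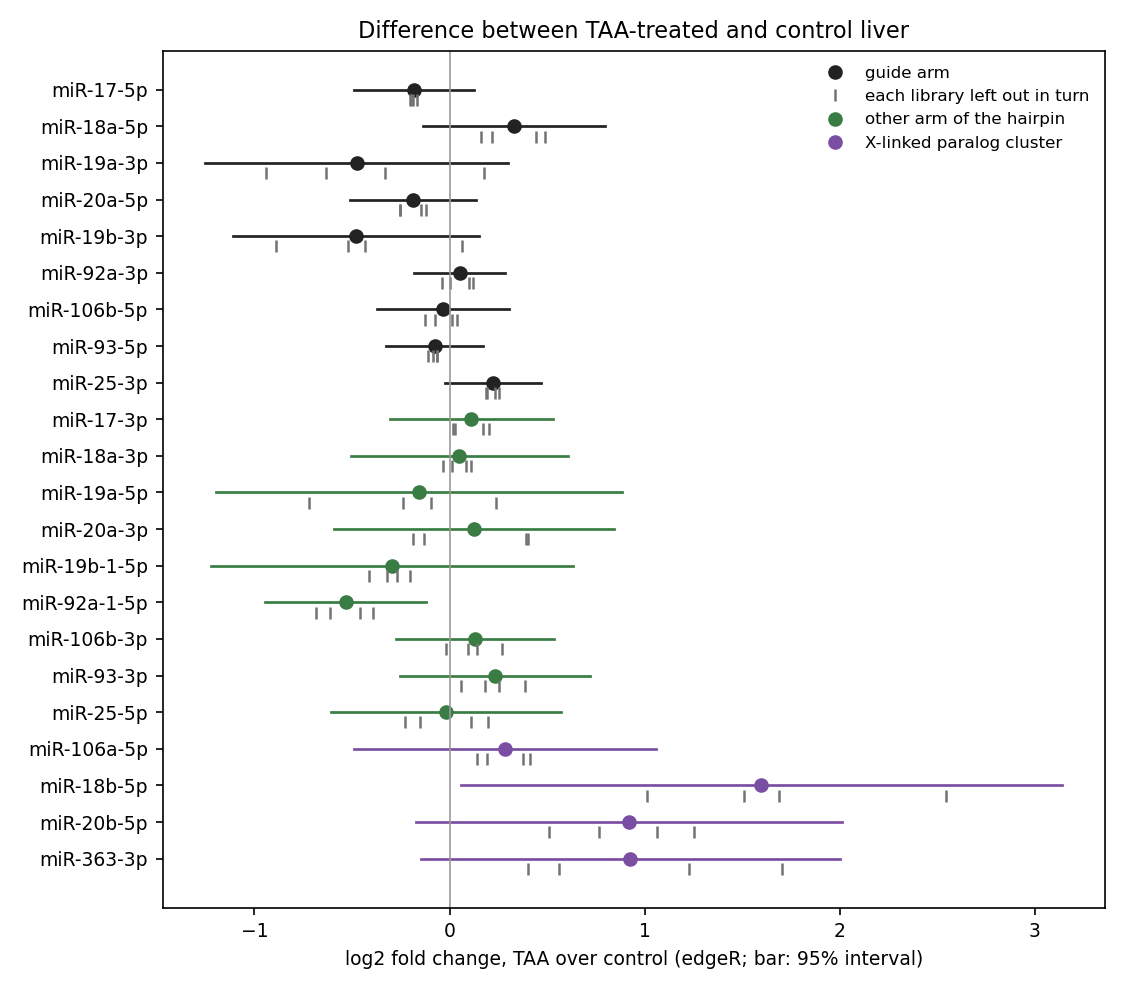
log2 fold change of TAA over control by edgeR with its 95% interval, for the 9 guide arms (black), the other arms of their hairpins (green) and the 4 tested miRNAs of the X-linked paralog cluster (purple). Grey ticks are the values with each library left out in turn; for miR-19a-3p and miR-19b-3p they run from -0.94 and -0.89 to 0.18 and 0.06, while those of miR-17-5p and miR-25-3p stay close together.

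The other arms of the 9 hairpins, which are mostly degraded when the guide is loaded, were all measured and tested, and 0 of 9 passed. The median of their log2 fold changes was 0.05. For 3 of these 9 arms the libraries did not overlap between groups, against 55.3% of all tested miRNAs. TAA lay above the controls for 1 of them (29.7% of all tested) and below for 2 (25.6%). miR-92a-1-5p comes only from the chromosome 14 hairpin, unlike miR-92a-3p, whose guide reads can come from the X as well. Its sequence, with its own bases 2 to 8 in capitals, is the following.
miR-92a-1-5p: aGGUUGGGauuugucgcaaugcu

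miR-92a-1-5p stood at 27.6 and 33.6 CPM in controls and at 22.2 and 20.1 CPM in TAA. Both TAA libraries were lower, and the log2 fold change was -0.53 (SE 0.18, interval -0.95 to -0.12) with a p of 0.0178 and an adjusted p of 0.0931 by edgeR. It crossed the threshold under 3 of the 13 alternatives: with upper-quartile scaling at -0.71 (edgeR adjusted p = 0.0312), in DESeq2 at -0.54 (adjusted p = 0.0235) and without control 1 at -0.69 (edgeR adjusted p = 0.0294). Over all alternatives its adjusted p ran from 0.0235 to 0.444. The ratio of miR-92a-3p to miR-92a-1-5p was 604.4 and 550.2 in controls and 790.9 and 940.0 in TAA, higher in both TAA libraries.

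**Figure D5:**
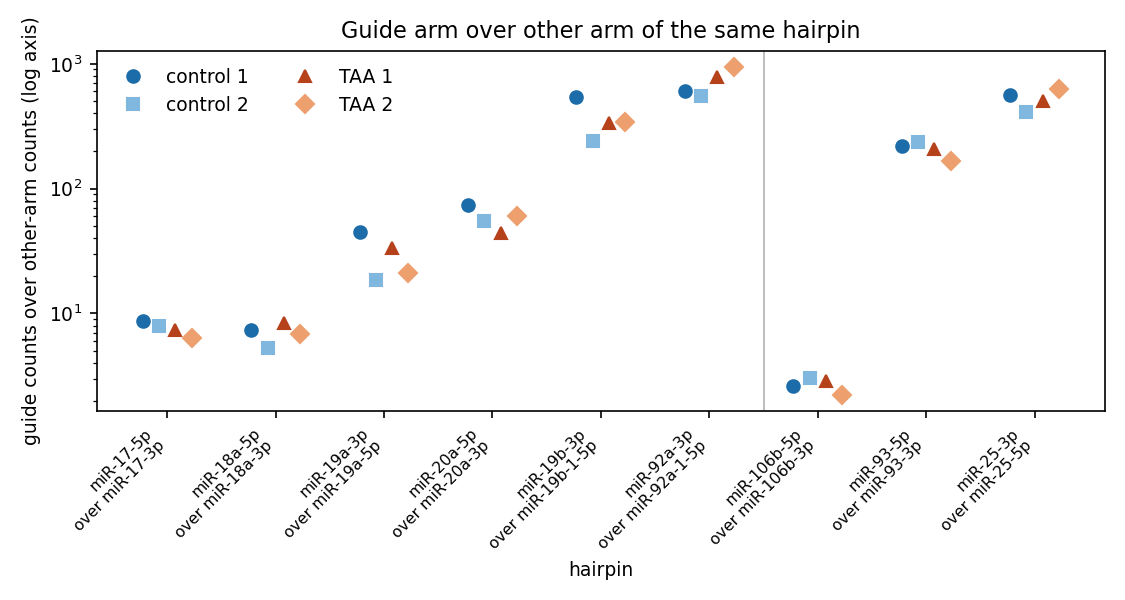
Counts of the guide arm over counts of the other arm of the same hairpin (log axis) in each library, with miR-17-92 left of the grey line and miR-106b-25 right of it. The ratio runs from 2.23 to 3.06 for miR-106b to between 550.2 and 940.0 for miR-92a-1, where the guide counts may include the second locus, as also for miR-19b-1.

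How strongly the guide arm prevailed differed by hairpin. In miR-106b the guide arm was only 2.63 and 3.06 times the 3p arm in controls and 2.90 and 2.23 times in TAA. In miR-17 it was 8.70 and 7.96 times in controls and 7.32 and 6.31 times in TAA, and in miR-18a it ranged from 5.26 to 8.39. miR-17-3p itself stood at 14.6 and 16.0 CPM in controls and at 15.5 and 17.6 CPM in TAA. At the other end, miR-25-3p was 566.9 and 407.6 times miR-25-5p in controls and 503.6 and 628.6 times in TAA. miR-93-5p lay at 166.8 to 237.9 times its other arm and miR-20a-5p at 44.3 to 74.6 times.

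Whether TAA shifted this balance was asked with limma on the log2 ratio of 5p to 3p counts over 152 hairpins. None of the 152 passed (0%), with 6 at an unadjusted p under 0.05. Of the clusters' 9 hairpins, 1 was among those 6. It was miR-92a-1, whose log2 ratio differed by -0.58 between TAA and control (SE 0.19, limma adjusted p = 0.824, unadjusted 0.0271). The other 8 had limma adjusted p-values up to 0.985. In miR-17, miR-20a and miR-93 the 5p to 3p ratio had differences of -0.29, -0.31 and -0.30, with standard errors of 0.19, 0.25 and 0.20. In miR-18a and miR-19a it had differences of 0.29 and 0.14, with standard errors of 0.24 and 0.46.

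Another copy of the cluster, miR-106a-363, lies on the X chromosome with its hairpins at chrX:52741693-52742567 on the minus strand, 875 bp. Its guide arms resemble those of miR-17-92 so closely that only a few bases keep their counts apart, which is why they are shown.
miR-106a-5p: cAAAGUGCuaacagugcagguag
miR-20b-5p: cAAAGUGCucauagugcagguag
miR-18b-5p: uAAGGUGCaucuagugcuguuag
miR-363-3p: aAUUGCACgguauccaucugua

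From miR-17-5p to miR-106a-5p the change is U10A, from miR-20a-5p to miR-20b-5p U1C and U10C, and from miR-18a-5p to miR-18b-5p A18U and A20U. The 10 rows specific to the X-linked cluster together held 77 and 122 counts in controls and 204 and 166 in TAA, or 1.82 and 2.85 CPM against 4.49 and 3.24 CPM. That is a small fraction of the autosomal clusters, and 3 of the 10 rows, miR-106a-3p, miR-19b-2-5p and miR-92a-2-5p, had no count in any library. Pooled by group, the CPM ratio of TAA to control was 1.64 (95% counting interval 1.37 to 1.95, which leaves out the spread between libraries). Both TAA libraries were above both controls, as for 29.7% of all tested miRNAs. Control 2 (2.85 CPM) was nearer to TAA 2 (3.24 CPM) than to control 1 (1.82 CPM).

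The filter on low counts passed 4 of the 10 rows, and 0 of the 4 passed the test. miR-363-3p, with the seed of miR-92a-3p, had 21 and 52 counts in controls and 91 and 65 in TAA. Control 1 was lowest and the log2 fold change was 0.93 (edgeR adjusted p = 0.266). Without control 2 it was called higher, at 1.70 (edgeR adjusted p = 0.0022), in a fit where 14.2% of tested miRNAs were higher. Without control 1 it was not, at 0.40 (edgeR adjusted p = 0.612), nor without TAA 1, at 0.56 (edgeR adjusted p = 0.769). miR-20b-5p had 16 and 13 counts in controls and 37 and 25 in TAA, with a log2 fold change of 0.92 (edgeR adjusted p = 0.276). miR-18b-5p had 2 and 6 counts in controls and 14 and 14 in TAA, a pooled ratio of 3.08 (counting interval 1.37 to 7.81; edgeR adjusted p = 0.177). It reached the filter through the TAA libraries alone, so a difference was bound to be seen, and its values are a description. miR-106a-5p, the nearest relative of miR-17-5p, had 38 and 46 counts in controls and 58 and 58 in TAA (log2 fold change 0.28, edgeR adjusted p = 0.684). Of their autosomal relatives, miR-17-5p and miR-20a-5p had negative log2 fold changes (-0.18 and -0.19), while miR-18a-5p and miR-92a-3p had positive ones (0.33 and 0.05). The difference between copies was not tested.

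Outside the 3 clusters, 2 tested miRNAs with a matched sequence had the seed of a member. Both carry AUUGCAC, the seed of miR-92a-3p and miR-25-3p.
miR-32-5p: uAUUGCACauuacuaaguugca
miR-92b-3p: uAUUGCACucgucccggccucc

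miR-32-5p stood at 29.4 and 39.4 CPM in controls and at 30.6 and 29.6 CPM in TAA, with overlapping groups and a log2 fold change of -0.19 (edgeR adjusted p = 0.603). miR-92b-3p, which differs from miR-92a-3p by U10C and G21C over the 21 bases compared, stood at 13.1 and 12.6 CPM in controls and at 17.9 and 14.4 CPM in TAA. It was higher in both TAA libraries but did not pass, at 0.33 (edgeR adjusted p = 0.354). miR-367-3p and miR-6383, with AUUGCAC and AAAGUGC, had no count in any library.

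Nearness to each cluster's total was measured as the mean absolute difference of log2 CPM centred over the 4 libraries. The nearest were named among miRNAs with a mean of at least 100 CPM. For the miR-17-92 total they were let-7f-5p (0.0383), miR-28a-5p (0.0428) and miR-222-3p (0.0442) of 133 candidates, whose median distance was 0.131. let-7f-5p stood at 19806 and 21494 CPM in controls and at 19569 and 20762 CPM in TAA, a level near that of miR-92a-3p. It was highest in control 2, while the miR-17-92 total was highest in TAA 2 (19315 CPM). Both varied little, so a small distance does not mean that they moved together between the groups. For the miR-106b-25 total they were miR-425-5p (0.0298), miR-140-3p (0.0331) and miR-484 (0.0359) of 135 candidates with a median of 0.136. miR-425-5p stood at 269.5 and 279.8 CPM in controls and at 292.8 and 313.8 CPM in TAA. These distances describe 4 libraries that share the scaling factors, and they carry no test.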

How the data were processed

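The 4 small RNA libraries of mouse liver were read from 1 deposited count file each, with raw counts per mature miRNA. RNA was isolated with an miRNeasy kit and libraries made with TruSeq Small RNA chemistry, per the labels' protocols. Bowtie, HTSeq and mm10 are named in the submitters' processing notes. The sources used here do not give versions, trimming, the miRNA annotation or the handling of multiply aligned reads, whose summary row was 0 in all 4 files. Rows that name no miRNA stayed out: reads outside annotated miRNAs were 22.8% to 26.4% and unaligned reads 7.11% to 8.49%.

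The test was edgeR 4.0.16 under R 4.3.3 (quasi-likelihood F test after filterByExpr and TMM scaling, Benjamini-Hochberg adjustment over 644 miRNAs, threshold 0.05). Standard errors are the log2 fold change over the square root of F. CPM are TMM-scaled. Arm ratios were log2 of 5p over 3p counts, each plus 0.5, where both arms averaged at least 20 counts, tested with limma 3.58.1; miR-19b-3p and miR-92a-3p were paired with their chromosome 14 hairpins. DESeq2 1.42.0, limma-voom, 3 other scalings, 2 filters, robust spread, a replicate block and leaving out each library were alternatives.

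Replicate counts differed beyond sampling noise (chi-square per degree of freedom 237 and 324), so no pair looked like 1 library deposited in duplicate. The tests were checked on simulated counts. RefSeq (GRCm38.p6) sequences matched 1623 of 1907 rows and all 9 members; host genes are from GENCODE on GRCm38. Named miRNAs are the members, the other arms of their hairpins, the X-linked paralogs, tested miRNAs with a member's seed, and the 3 of at least 100 CPM nearest to each cluster's centred total. The members and lists were chosen with earlier results of these data known. The pancreas list and the miRNAs named beside it were chosen after their values were seen. The labels give no batch.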

Additional observations from a re-analysis of the deposited data

How the results depend on the processing

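Scaling set the sign of the smallest values: the median log2 fold change of all tested miRNAs was -0.17 with upper-quartile factors and 0.12 with library size alone, against -0.0042. Upper-quartile factors gave log2 ratios of -0.13 for miR-17-92, -0.085 for miR-106b-25, -0.26 for AAAGUGC and -0.11 for AUUGCAC, and -0.12 for miR-92a-3p, -0.061 for miR-17-3p, -0.12 for miR-18a-3p, -0.053 for miR-20a-3p and -0.036 for miR-106b-3p. Library size alone gave 0.17, 0.21, 0.030 and 0.19 for those totals, and 0.091 for miR-106b-5p, 0.047 for miR-93-5p and 0.11 for miR-25-5p. Without miR-19b-3p and miR-92a-3p, miR-17-92 was at -0.18 and AUUGCAC at 0.22. At a mean of at least 10 CPM, miR-106b-5p was at 0.044 and miR-93-5p at 0.0024, and 23 miRNAs rose and 4 fell. Over all miRNAs 83 rose and 32 fell with upper-quartile factors, 107 and 12 with library size alone, and 105 and 32 with no filter, where 1 member (miR-19b-3p) fell.

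Leaving out 1 library in turn gave 47 to 98 miRNAs higher, 2 to 33 lower (3 and 2 without TAA 1 and TAA 2, 29 and 33 without control 1 and control 2), and 0 to 2 members lower. The totals ranged from -0.11 to -0.069 for AAAGUGC, -0.89 to 0.090 for GUGCAAA, -0.020 to 0.11 for miR-17-92 and -0.0028 to 0.13 for AUUGCAC. Fold changes ranged from -0.94 to 0.18 for miR-19a-3p, -0.89 to 0.062 for miR-19b-3p, -0.039 to 0.12 for miR-92a-3p, -0.13 to 0.040 for miR-106b-5p, -0.035 to 0.11 for miR-18a-3p, -0.72 to 0.24 for miR-19a-5p, -0.19 to 0.40 for miR-20a-3p, -0.019 to 0.27 for miR-106b-3p, -0.23 to 0.20 for miR-25-5p and -0.41 to 0.026 for miR-32-5p. Changed hairpins numbered 0 to 13, or 3 with a pseudocount of 5 and 1 with at least 100 counts per arm. Arm-ratio differences ranged from -0.34 to 0.033 for miR-106b, -0.49 to 0.77 for miR-19a, -0.47 to 0.0090 for miR-25 and -0.47 to 0.69 for miR-19b-1. The cause was not tested.

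Replicate numbers gave no sign of pairing in a single correlation: deviations of control 1 and TAA 1 correlated at -0.05 across 644 miRNAs. That value cannot exclude a pairing that affects some miRNAs only. With the replicate number as a block 92 miRNAs rose and 18 fell, 0 of them members. With 2 libraries per group, a member without a call may still differ by any amount inside its printed interval.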
